A study of Mus musculus with 9 samples.

Results

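The transcripts of the T-cell receptor complex and its co-receptors were followed in BCR/ABLp185+ cell lines, which are transformed bone marrow cells of the B lineage. The 10 genes were Cd3d, Cd3e, Cd3g, Cd247, Cd4, Cd8a, Cd8b1, Trbc1, Trbc2 and Trac, taken by symbol from the 50686 genes of the count tables, and all 10 passed the filter on low counts. Their levels were compared between the lines, and their ratios to each other were compared between libraries. The study held 3 lines on the C57BL/6N background, each carrying BCR/ABLp185: 1 wt line, 1 Stat5a-/- line and 1 Stat5b-/- line. Each line was cultured in RPMI with serum and gave 3 technical replicate libraries, 9 in all. The tests below therefore compare 3 lines and measure only the spread between libraries of a line, and genotype and line cannot be told apart. A bulk library cannot distinguish more cells of a type from more RNA in each cell.

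The libraries held 11948136 to 19016396 counted reads. Stat5a, the gene deleted in the Stat5a-/- line, lay at 11.8 to 13.6 normalized CPM, which are reads scaled to a common library total, in that line and at 36.0 to 48.2 in wt. Stat5b lay at 58.5 to 72.3 normalized CPM in the Stat5b-/- line against 103 to 107 in wt, a log2 fold change of -0.73 ± 0.11 (SE, adjusted p = 1.69e-04, edgeR's quasi-likelihood test), so that reads over this gene remained. A deposited free-text description of the knockout samples reads as wt, and the titles and genotype labels were followed. Pax5 and Ebf1, which define B-lineage cells, had at least 5976 reads in every library, and 13 of 13 B-lineage marker genes passed the filter on low counts. Among them, Rag1 had only 1 to 11 reads and Rag2 0 to 16 in the libraries of the knockout lines. The summed level of these 13 genes was 6618 to 7060 normalized CPM in wt, 10727 to 11908 in Stat5a-/- and 7318 to 8206 in Stat5b-/- libraries, and that of the 10 T-cell genes was 593 to 852, 874 to 1048 and 1240 to 1884.

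On T cells an alpha and a beta chain recognise antigen and are held at the surface by the CD3 proteins. CD3 gamma, delta and epsilon form pairs with the receptor chains, and the zeta chain carries most of the signalling motifs that LCK phosphorylates and ZAP70 binds. CD4 and CD8 are co-receptors that bind MHC class II and class I and bring LCK to the complex. A mature alpha-beta T cell usually carries either CD4 or CD8, and conventional CD8+ T cells carry an alpha and a beta chain of CD8. B-lineage cells are defined by other genes, such as Pax5 and the immunoglobulin genes.

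The 10 genes lie at 6 places of the GRCm38 genome. Cd3g (chromosome 9, 44969572 to 44980431, minus strand), Cd3d (44981786 to 44987339, plus) and Cd3e (44998740 to 45009627, minus) form a cluster of 40.1 kb, in which the starts of Cd3g and Cd3d are 1355 bp apart and point away from each other. Cd247, the zeta chain, is on chromosome 1 (165788681 to 165877277, plus). Trbc1 (41538218 to 41539881) and Trbc2 (41546730 to 41548352) are neighbours on the plus strand of chromosome 6, as are Cd8b1 (71322788 to 71337494) and Cd8a (71373427 to 71379173). Cd4 is on the minus strand of that chromosome (124864692 to 124888221), and Trac is on the plus strand of chromosome 14 (54220521 to 54224206). Reads were counted over the exons of each gene. Of the exon bases of Cd247, 60.3% are shared with exons of Pou2f1 or Gm16565, and 3.31% of those of Cd3e with Gm48719. Reads over such bases were not counted for any gene, so the level of Cd247 is understated, while its differences between libraries rest on the rest of its exons.

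Cd3e was the most abundant of the CD3 transcripts. It had 127, 175 and 159 normalized CPM in the wt libraries 1 to 3, 221, 237 and 196 in Stat5a-/- and 377, 265 and 366 in Stat5b-/-. Every Stat5b-/- library was above every Stat5a-/- library, and these were all above wt. Cd3g had 29.9, 48.5 and 43.6 normalized CPM in wt, 58.1, 56.7 and 45.5 in Stat5a-/- and 115, 64.1 and 103 in Stat5b-/-, and here the third Stat5a-/- library fell among the wt values. Cd3d had 14.6, 24.3 and 20.8 in wt, 23.3, 22.8 and 20.02 in Stat5a-/- and 54.8, 30.2 and 46.5 in Stat5b-/-. For Cd3d the Stat5a-/- libraries lay within the wt range, and only the Stat5b-/- libraries stood apart. Cd247 had 16.2, 23.8 and 20.2 normalized CPM in wt, 30.0, 30.5 and 26.8 in Stat5a-/- and 53.3, 35.2 and 50.3 in Stat5b-/-, with no overlap between the 3 lines.

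The co-receptor reads were almost all from the 2 chains of CD8. Cd8a had 111, 167 and 149.9 normalized CPM in wt, 203, 189 and 156 in Stat5a-/- and 383, 225 and 348 in Stat5b-/-. Cd8b1 had 94.6, 119 and 110.3 in wt, 144, 161 and 139 in Stat5a-/- and 264, 192 and 261 in Stat5b-/-. The 3 lines did not overlap for Cd8b1, while the third Stat5a-/- library fell within the wt range for Cd8a. Cd4 was near the limit of these libraries, with 14 to 37 reads in wt, 14 to 29 in Stat5a-/- and 38 to 43 in Stat5b-/-. These reads gave 0.888, 1.87 and 1.21 normalized CPM in wt, 2.03, 1.95 and 1.26 in Stat5a-/- and 2.95, 2.60 and 2.89 in Stat5b-/-. The Stat5b-/- libraries were above all others for Cd4 too, and wt and Stat5a-/- overlapped.

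The receptor constant regions were measured by Trac for the alpha chain and by Trbc1 and Trbc2 for the beta chain. Trac had 87.1, 125 and 112 normalized CPM in wt, 156, 154 and 129 in Stat5a-/- and 272, 182 and 259 in Stat5b-/-. Trbc2 had 101, 139.7 and 132 in wt, 181, 173 and 146 in Stat5a-/- and 309, 217 and 295 in Stat5b-/-. Neither gene overlapped between any of the 3 lines. Trbc1 had 10.3, 27.4 and 20.7 in wt, 28.0, 24.3 and 14.8 in Stat5a-/- and 53.8, 27.5 and 53.5 in Stat5b-/-. It varied most within a line, by up to 2.65-fold between wt libraries, and its Stat5a-/- values overlapped both those of wt and those of Stat5b-/-.

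**Figure D1:**
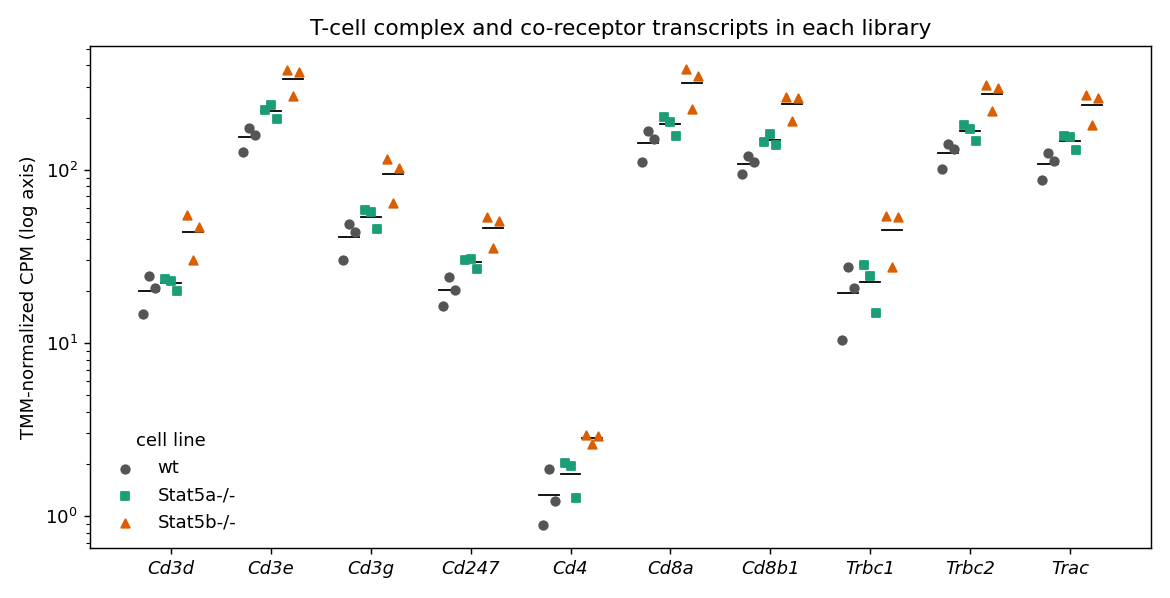
Normalized CPM (log axis) of the 10 transcripts in each library, with replicates 1 to 3 from left to right in each line and a bar at the mean of the 3 libraries. The Stat5b-/- mean is highest for every gene, and within each line the lowest library is the same for all 10 genes.

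Per kilobase of exon, the levels kept nearly 1 order in all lines. In wt, Trbc2 was highest at 180 ± 29.6 normalized CPM per kb (SD, n = 3), followed by Trac at 115 ± 20.4 and Cd8b1 at 72.9 ± 8.46, each apart from the next gene in all 3 libraries. Cd8a (39.3 ± 7.82), Cd3e (37.6 ± 6.00) and Trbc1 (26.0 ± 11.5) came next and overlapped their neighbours, as did Trbc1 and Cd3g (12.4 ± 2.96) and, next, Cd3d (10.97 ± 2.72). Cd247 lay at 3.77 ± 0.712 and Cd4 at 0.328 ± 0.124, both apart from the gene above. The lengths used include the 60.3% of Cd247 exon bases, and the stretches common to Trbc1 and Trbc2, where reads were not counted. The values per kb of these genes are therefore understated. The places of Cd247 and Trbc1 in the order, and the distance of Cd247 from Cd3d, are thus uncertain. The order was the same in Stat5b-/- and differed in Stat5a-/- only in Cd3e and Cd8a, whose ranges overlapped there also.

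In Stat5b-/- against wt all 10 transcripts were higher. Their log2 fold changes lay between 1.06 (Cd4) and 1.20 (Cd3g), with a median of 1.14 against 0.023 over all 13852 genes tested. A gene was called at a Benjamini-Hochberg adjusted p under 0.05 in edgeR's quasi-likelihood test and a change of more than 2-fold, which 10.6% of all genes met as higher and 8.44% as lower. Cd8b1 had the smallest adjusted p, at a log2 fold change of 1.14 ± 0.14 (SE, adjusted p = 1.59e-05), and Trbc1 the largest, at 1.20 ± 0.33 (adjusted p = 0.00957). Cd3e rose by 1.13 ± 0.15 (adjusted p = 4.90e-05), Trbc2 by 1.14 ± 0.15 (adjusted p = 5.43e-05) and Trac by 1.14 ± 0.16 (adjusted p = 8.96e-05). All 3 Stat5b-/- libraries were above all 3 wt libraries for each of the 10 genes. How many of all genes tested separated in this way was not counted, so this is a description only. As the changes are close to 2-fold, the count fell to 7 without wt replicate 1, when Cd3d (0.95), Cd4 (0.85) and Trbc1 (0.89) dropped under the fold limit, and to 7 without Stat5b-/- replicate 1, when Cd3d (0.91), Cd4 (0.99) and Cd8a (0.98) did. Without wt replicate 3 only Cd4 (0.99) was lost.

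Between Stat5a-/- and wt 0 of the 10 were called by edgeR or DESeq2, where 7.75% of all genes were higher and 6.49% lower. All 10 log2 fold changes were positive, from 0.14 to 0.53 with a median of 0.41 against 0.0099 over all genes. An unadjusted p under 0.05 was reached by 5 genes with either tool, and an adjusted p under 0.05 by 4 in edgeR, at less than 2-fold. These were Cd3e (0.50 ± 0.15, SE, adjusted p = 0.0187), Cd247 (0.53 ± 0.17, adjusted p = 0.0269), Cd8b1 (0.45 ± 0.13, adjusted p = 0.0182) and Trbc2 (0.42 ± 0.15, adjusted p = 0.0482). Trac, at 0.44 ± 0.16, had an adjusted p of 0.0509. The count of 4 rested on single libraries, being 0 without wt replicate 1 or Stat5a-/- replicate 2 and 1 without wt replicate 3 or Stat5a-/- replicate 1. Cd3d (0.14 ± 0.22, adjusted p = 0.648) and Trbc1 (0.20 ± 0.34, adjusted p = 0.687) were the least different, and turned slightly negative without wt replicate 1, at -0.036 and -0.0998.

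In Stat5b-/- against Stat5a-/- again 0 of the 10 were called by edgeR or DESeq2, beside 4.81% of all genes higher and 6.6% lower. The log2 fold changes lay between 0.63 (Cd3e) and 1.00 (Trbc1), with a median of 0.71 against 0.020 over all genes. All 10 genes had an unadjusted p under 0.05 in both tools, and 9 an adjusted p under 0.05 in edgeR, the exception being Cd4 (0.67 ± 0.28, SE, adjusted p = 0.0849). In DESeq2 8 genes had an adjusted p under 0.05. Cd3d, at 0.99 ± 0.21 (adjusted p = 0.00321), and Trbc1, at 1.00 ± 0.33 (adjusted p = 0.034), were just under the fold limit, and Trbc1 lost its adjusted p under 0.05 without any 1 of Stat5a-/- replicates 2 and 3 and Stat5b-/- replicates 1 and 3 (0.0693 to 0.106). Without Stat5b-/- replicate 2, Cd3d (1.20), Cd3g (1.02) and Trbc1 (1.25) were called. The count was 2 without Stat5a-/- replicate 1 (Cd3d and Trbc1) and 1 without Stat5a-/- replicate 2 (Cd3d). The 3 comparisons share libraries and are not independent of each other.

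**Figure D2:**
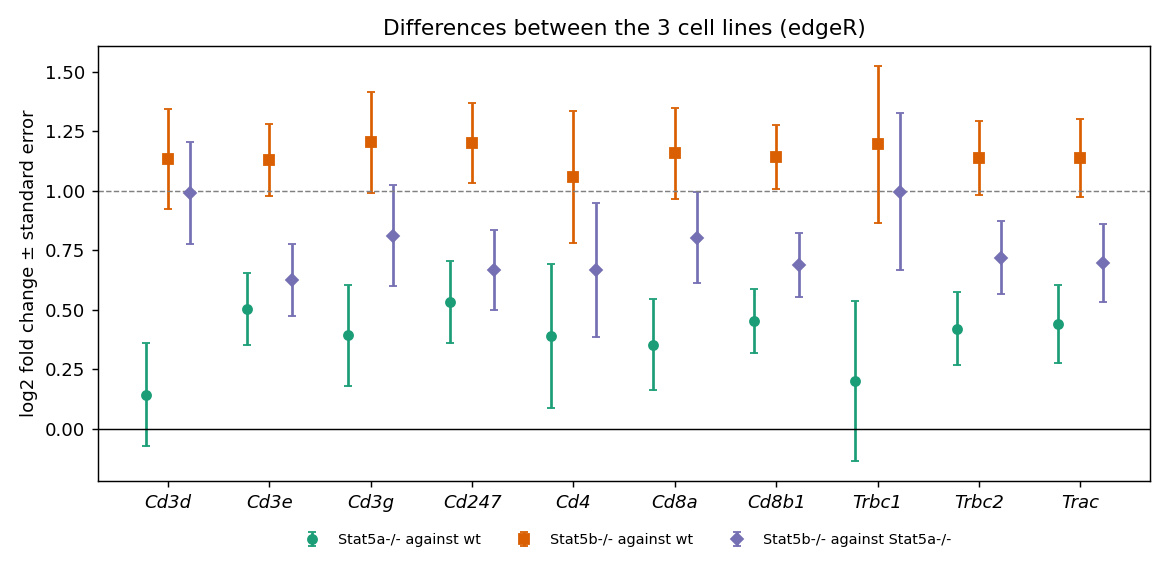
Log2 fold change of each transcript in the 3 comparisons of lines, with bars for the standard error (edgeR) and a dashed line at 2-fold. The 10 values of Stat5b-/- against wt lie between 1.06 and 1.20, those of Stat5a-/- against wt between 0.14 and 0.53.

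The libraries of a line also differed, and all 10 genes followed the same library. In wt, replicate 1 was lowest and replicate 2 highest for 10 of 10 genes. In Stat5b-/-, replicate 2 was lowest and replicate 1 highest for 10 of 10, and in Stat5a-/- replicate 3 was lowest for 10 of 10 while replicate 1 was highest for 7 and replicate 2 for 3. Depth followed the same order in wt, with 15330302, 19016396 and 16569410 reads in replicates 1 to 3. In Stat5a-/- the lowest library was also the smallest, with 11948136 reads. In Stat5b-/- the highest library was the largest, with 14657020 reads, but the lowest had 14416483 and replicate 3 only 12527910. The levels are scaled for depth, and the part of depth in these differences was not tested. The base composition of the reads differed between these libraries as well. Across 13824 genes, GC content and the distance of a library from its line's mean level were correlated at 0.47, -0.48 and -0.058 in wt replicates 1 to 3, -0.35, -0.31 and 0.52 in Stat5a-/- and 0.32, 0.16 and -0.45 in Stat5b-/-. It was thus highest in the lowest library of wt and of Stat5a-/-, but not of Stat5b-/-. The transcripts themselves range from 38.5% GC in Cd3g to 52.0% in Cd4, against a median of 49.6% over the genes tested, and the part of base composition in these values was not tested.

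The ratios of the transcripts to each other were compared next, as reads of 1 gene per 100 reads of another in the same library. Within the CD3 complex there were 12.7 to 14.1 Cd247 reads per 100 Cd3e reads over the 9 libraries, 23.3 to 30.5 Cd3g reads and 9.63 to 14.5 Cd3d reads. Between receptor chains there were 83.6 to 89.2 Trac reads per 100 Trbc2 reads and 10.2 to 19.6 Trbc1 reads. Trbc2 had 72.9 to 83.3 reads per 100 Cd3e reads. Among the co-receptors, Cd8b1 had 68.9 to 88.8 and Cd4 0.770 to 1.15 reads per 100 Cd8a reads. The level of each gene varied over the same libraries with an SD of 0.52 to 0.77 log2 units.

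The steadiest ratio was that of the alpha to the beta constant region. The log2 ratio of Trac to Trbc2 had an SD of 0.033 over the 9 libraries, below the 0.043 that counting error alone gives, and its line means differed by at most 0.027. The ratio of Cd247 to Cd3e had an SD of 0.052 against a counting error of 0.076, with line means within 0.072 of each other. These pairs lie on different chromosomes. The ratio of Cd4 to Cd8a had an SD of 0.23 against 0.29 from counting, its line means within 0.076. Other ratios varied more than counting error, with an SD of 0.067 against 0.039 for Trbc2 to Cd3e, 0.14 against 0.058 for Cd3g to Cd3e, 0.14 against 0.042 for Cd8b1 to Cd8a and 0.21 against 0.081 for Cd3d to Cd3e.

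None of 8 ratios differed between the lines in a two-sided exact permutation test over the 9 libraries. The closest was Cd3d to Cd3e, with 13.1 reads per 100 in wt, 10.1 in Stat5a-/- and 13.1 in Stat5b-/- when the libraries of a line are added up. Its exact p was 0.0607, or 0.486 after adjustment over the 8 ratios, and the line means lay 0.34 log2 units apart. For the other 7 the adjusted exact p lay between 0.636 and 0.954 and the line means were at most 0.28 apart. The smallest p that the 280 partitions allow is 0.00357. A p above the threshold does not show that the ratios were equal. For comparison, the levels themselves had log2 fold changes of 1.06 to 1.20 between Stat5b-/- and wt.

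Of the 8 ratios, that of Trbc1 to Trbc2 varied most between libraries. Both genes encode a beta-chain constant region, a receptor uses 1 or the other, and their coding sequences are 95.6% identical. Exon 1 differs at 1 of 375 bases, and the later exons hold the other 22 of the 23 differences. The coding parts of exons 2 to 4, where most differences lie (GRCm38, chromosome 6, plus strand, exons at 41539114 to 41539131, 41539229 to 41539335 and 41539645 to 41539662 for Trbc1 and at 41547610 to 41547627, 41547772 to 41547878 and 41548161 to 41548178 for Trbc2), are shown from GENCODE transcripts, with the bases that differ in capitals.
Trbc1: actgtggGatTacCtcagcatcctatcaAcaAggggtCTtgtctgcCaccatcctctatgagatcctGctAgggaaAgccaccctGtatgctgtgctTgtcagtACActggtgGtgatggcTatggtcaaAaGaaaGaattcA
Trbc2: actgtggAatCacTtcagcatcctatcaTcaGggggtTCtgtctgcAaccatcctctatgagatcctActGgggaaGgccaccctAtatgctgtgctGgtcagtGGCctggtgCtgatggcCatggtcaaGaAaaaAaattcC
Of the 50-base windows, 283 occur in both transcripts, which is 41.1% of those of Trbc1 and 44.0% of those of Trbc2. Reads from such windows map to both genes and were not counted, so both levels are understated and uncertain.

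The share of Trbc1 in the reads of both genes was 9.29% (95% exact binomial interval 7.97 to 10.7), 16.4% (15.1 to 17.7) and 13.6% (12.3 to 14.9) in wt replicates 1 to 3. It was 13.4% (12.2 to 14.7), 12.4% (11.1 to 13.7) and 9.22% (7.92 to 10.7) in Stat5a-/- and 14.8% (13.9 to 15.8), 11.2% (10.2 to 12.3) and 15.4% (14.3 to 16.4) in Stat5b-/-. The lowest share in each line belonged to the library in which all 10 transcripts were lowest. The SD of the log2 ratio of Trbc1 to Trbc2 was 0.37 within lines and 0.34 over all 9 libraries, against a counting error of 0.085, while the line means differed by 0.28 (exact permutation p = 0.643). The variation was thus between libraries of a line and exceeded counting error, whereas no difference between lines was detectable. Cd8b1 had 84.9, 88.8 and 85.1 reads per 100 Cd8a reads in these same 3 libraries and 68.9 to 85.2 in the other 6. Intervals here cover counting error only.

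**Figure D3:**
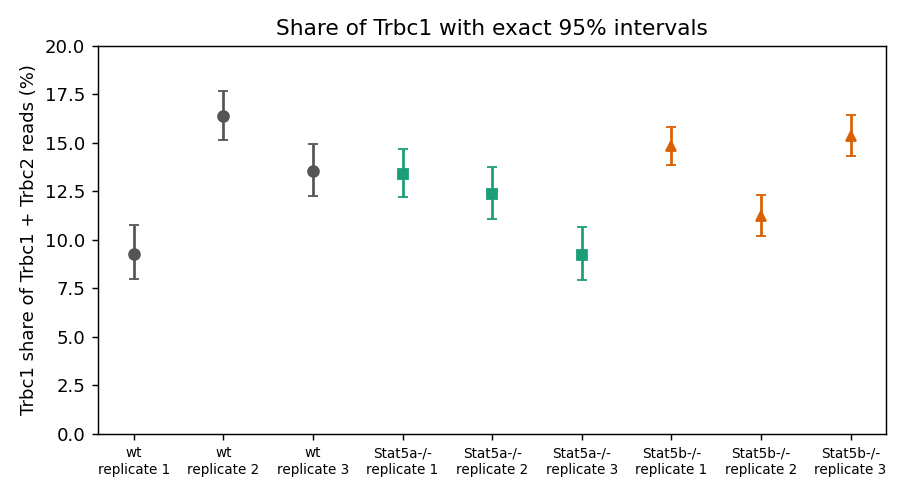
Share of Trbc1 in the reads of Trbc1 and Trbc2 in each library, with exact 95% binomial intervals. The shares run from 9.22% to 16.4% and differ more between the libraries of a line than between lines.

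Cd4 was 0.765% to 1.14% of the reads of Cd4 and Cd8a. Over the 9 libraries the bounds of the exact 95% intervals ran from 0.433% to 1.56%, and all 9 intervals overlapped.

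Other parts of the receptor genes were also read. Of 35 beta-chain V segments (Trbv) 26 had reads, 18 to 24 of them in each library and 17 in all. Trbv3 was the most frequent in all 9 libraries, with 22.3% to 30.4% of Trbv reads. Of 128 alpha-chain V segments (Trav) 63 had reads, 27 to 42 in each library, with Trav19 in front in 7 libraries and Trav12-2 in 2, on only 69 to 226 reads in all. Trbv reads numbered 19.0 to 27.0 per 100 Trbc2 reads in the 9 libraries. The segments thus spanned many V genes in each line, with 1 beta segment leading throughout.

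The alpha and beta segments and the gamma segments were ordered in opposite directions across the lines. Summed Trbv levels were 19.2 to 37.7 normalized CPM in wt, 31.5 to 39.4 in Stat5a-/- and 44.7 to 76.7 in Stat5b-/- libraries. Trdc, the delta constant region, was low and ordered like the beta chain, at 3.68 to 6.97, 7.03 to 8.11 and 9.70 to 15.8. The 15 gamma-chain gene segments (Trg) summed to 635 to 719 normalized CPM in wt, 355 to 512 in Stat5a-/- and 236 to 303 in Stat5b-/-, with no overlap. Reads of Trg segments therefore ranged from 76.5 to 629 per 100 Trbc2 reads, while Trdc stayed between 3.64 and 5.37. These sums were not tested.

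**Figure D4:**
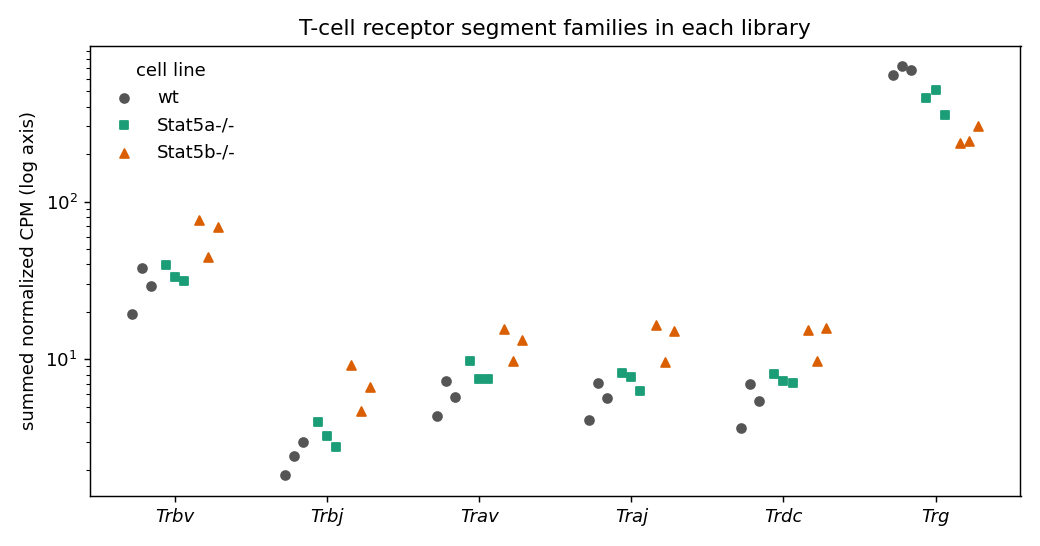
Summed normalized CPM (log axis) of the T-cell receptor segment families in each library, for beta V and J, alpha V and J, delta constant and gamma segments. The gamma family (Trg) is highest in wt at 635 to 719 and lowest in Stat5b-/- at 236 to 303, and the other families are highest in Stat5b-/-.

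A list of 22 further T-cell genes for signalling and commitment was read beside the complex. In Stat5b-/- against wt 18 of the 21 tested were higher and 0 lower, with a median log2 fold change of 1.19. Of all genes tested, 10.6% were higher and 8.44% lower there. In Stat5a-/- against wt 3 list genes were higher and 0 lower, and in Stat5b-/- against Stat5a-/- 4 were higher and 1 lower, with the same counts by DESeq2. Over all genes tested, 7.75% were higher and 6.49% lower in the former, and 4.81% and 6.6% in the latter. At an unadjusted p under 0.05, 0 list genes were lower in either knockout line against wt by either tool. The summed level was 692 to 918 normalized CPM in wt, 1383 to 1559 in Stat5a-/- and 1779 to 2354 in Stat5b-/-. Cd2 alone had means of 55.1, 276 and 96.3 in these lines, and so weighed most on the Stat5a-/- sum. Ptcra, the pre-T-cell alpha chain of immature thymocytes, had 0 to 2 reads in each library and was not tested.

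The list genes varied to different degrees in their ratio to Cd3e. The following 3 were chosen after their values were seen. Tcf7, a transcription factor of T-cell commitment, had 145, 155 and 152 reads per 100 Cd3e reads in wt, Stat5a-/- and Stat5b-/-. Thy1, a surface protein of T cells, had 104, 109 and 103, and Bcl11b, a factor of T-cell commitment, 23.5, 22.2 and 24.6. Their log2 ratios to Cd3e varied with an SD of 0.059 to 0.088, within the range of the complex itself. Other list genes, also chosen by their values, varied more. Cd28 had 20.1, 11.3 and 13.4 reads per 100 Cd3e reads (SD 0.41), and Gata3 had 3.47, 2.99 and 5.24 (SD 0.41). The list was thus not uniform in its ratios to Cd3e.

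The 6 genes with the largest changes were chosen by those changes, so their ratios to Cd3e are given as a description. Lck, the kinase bound by the co-receptors, had 22.9, 42.5 and 62.0 reads per 100 Cd3e reads and was higher in all 3 comparisons, at log2 fold changes of 1.40, 2.56 and 1.17 (adjusted p at most 8.13e-06). Zap70, the kinase that binds the zeta chain, had 5.11, 4.54 and 12 reads per 100 and was higher in Stat5b-/- against wt (2.34 ± 0.12, SE, adjusted p = 4.86e-09). Grap2, an adaptor, had 7.20, 17.2 and 13.4 and was higher in both knockout lines, by 1.77 and 2.02. Cd2, an adhesion receptor, had 35.5, 126 and 28.7, with a log2 fold change of 2.33 ± 0.10 in Stat5a-/- against wt (adjusted p = 1.07e-09) and of -1.52 ± 0.10 in Stat5b-/- against Stat5a-/- (adjusted p = 6.97e-08). The adaptors Lat (22.7, 25.3 and 36.2 reads per 100) and Lcp2 (49.6, 61.8 and 75.3) lay between, and both were higher in Stat5b-/- against wt, by 1.79 and 1.74. Zap70 is also known to be made by precursor B cells. Their log2 ratios to Cd3e had an SD of 0.29 to 1.01, which overlaps the 0.051 to 0.37 of the 9 other genes of the complex and its co-receptors.

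**Figure D5:**
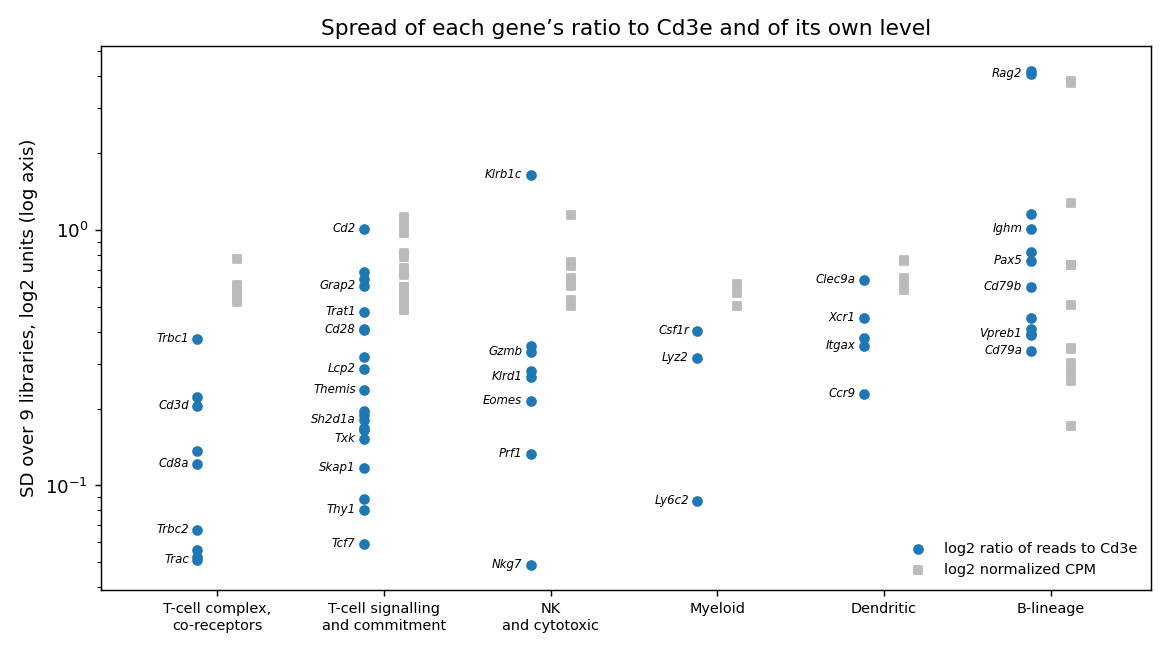
SD over the 9 libraries of each tested gene's log2 read ratio to Cd3e (circles) and of its own log2 normalized CPM (squares), by gene list, on a log axis with as many names as space allows and 2 list genes left out. The T-cell complex and co-receptor genes lie at 0.051 to 0.37, and the B-lineage genes at 0.34 to 4.2045.

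Marker genes of other blood cells were read in the same way. Of 10 genes of NK and cytotoxic cells 8 were tested, and 6 were higher and 1 lower in Stat5b-/- against wt, while 0 were higher and 1 lower in either other comparison. Over all genes tested, 10.6% were higher and 8.44% lower in Stat5b-/- against wt. The cytotoxic granule gene Nkg7 had 36.1, 35.2 and 36.1 reads per 100 Cd3e reads in wt, Stat5a-/- and Stat5b-/- and rose by 1.13 ± 0.16 in Stat5b-/- against wt (SE, adjusted p = 8.25e-05). Klrk1 (1.29), Gzmb (1.30), Eomes (1.10) and Prf1 (1.07) rose as well, and CD8+ T cells are known to use these genes too. Klrb1c, which encodes the NK receptor NK1.1, fell by 2.65 ± 0.18 (adjusted p = 6.91e-08), and Ncr1, a receptor that defines NK cells, had 1 to 5 reads. The list summed to 85.9 to 132 normalized CPM in wt, 116 to 148 in Stat5a-/- and 161 to 268 in Stat5b-/-.

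Of 8 myeloid genes 3 were tested, and all 3 were higher in Stat5b-/- against wt: Ly6c2 (1.11), Csf1r (1.09) and Lyz2 (1.07). For comparison, 10.6% of all genes tested were higher there. The list summed to 156 to 207 normalized CPM in wt, 262 to 290 in Stat5a-/- and 344 to 435 in Stat5b-/-, nearly all from Ly6c2, which CD8+ T cells also express. The granule genes Mpo and Elane had at most 2 reads in any library, Csf3r 1 to 3, Adgre1 0 to 8 and Itgam 1 to 11. Of 6 dendritic genes 5 were tested and 4 were higher in Stat5b-/- against wt, namely Itgax (1.55), Ccr9 (1.14), Siglech (1.07) and Clec9a (1.05), on 2 to 36 reads except for Ccr9, which lymphocytes also express. This list summed to 14.0 to 21.8, 19.7 to 26.5 and 27.4 to 49.2 normalized CPM. DESeq2 called 2 of the dendritic genes there. In Stat5b-/- against Stat5a-/- Clec9a alone was higher by edgeR, and 0 by DESeq2. In Stat5a-/- against wt 0 of the myeloid and dendritic genes were called by either tool, and 1, a myeloid gene, had an unadjusted p under 0.05. The part of other cell types in the levels of the T-cell genes was not tested.

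The B-lineage genes varied in their ratio to Cd3e, with SDs of 0.34 to 4.2045 log2 units. Of the 13 tested, 2 were higher and 2 lower in Stat5b-/- against wt, with Dntt at 1.32 and Cd79a at 1.09 and the recombinase genes Rag1 at -6.59 and Rag2 at -5.55. Over all genes tested, 10.6% were higher and 8.44% lower there. In Stat5a-/- against wt 2 B-lineage genes were higher, Cd22 at 1.62 and Ighm at 1.23, and 3 lower, beside 7.75% and 6.49% of all genes. Pax5 had 781 reads per 100 Cd3e reads in wt, 550 in Stat5a-/- and 279 in Stat5b-/-, and the SD of its log2 ratio to Cd3e was 0.75 against 0.28 for its own level. Cd79a had 458, 577 and 454 reads per 100, and its ratio varied less than its level, with SDs of 0.34 and 0.51, as did that of Dntt, with SDs of 1.15 and 1.28. For Trac, the ratio to Cd3e had an SD of 0.051 and its level one of 0.54.

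Outside the 10 genes, those most like Cd3e over the 9 libraries, by Pearson's r of log2 normalized CPM were H2-Aa (0.998), Il2rb (0.998), Cd27 (0.996), Nkg7 (0.996) and Acta1 (0.996). H2-Aa encodes an MHC class II chain, Il2rb an interleukin receptor chain and Cd27 a receptor of lymphocytes. For Trbc2, again outside the 10 genes, they were Nkg7 (0.996), Kbtbd11 (0.994), Tent5a (0.994), Sp100 (0.994) and Cd27 (0.994). After the mean of each line was subtracted, Il2rb (0.995), Acta1 (0.993), Samd10 (0.991), Nsg2 (0.990) and Cd27 (0.989) were nearest to Cd3e outside the 10 genes. For Trbc2 they were then Cfl2 (0.996), Gm44175 (0.995), Skap1 (0.994), Cdkn1b (0.994) and Gm19261 (0.994). Of the complex itself, r with Cd3e ran from 0.900 for Trbc1 to 0.998 for Cd247 over the 9 libraries, and from 0.752 for Cd4 to 0.988 for Trac after subtraction, against -0.73 for Pax5 over the 9 libraries. Trac had an r of 0.998 with Trbc2. These coefficients describe 9 libraries of 3 lines that share depth and base composition within a library.

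As the genes moved together, their promoters were read for shared motifs. The RefSeq promoter table used here (GRCm38.p6) matched 5 of the 10 genes, Cd3d, Cd3e, Cd3g, Cd247 and Cd8a. The 150 bases before each RefSeq start are printed 5′ to 3′ on the gene's strand, and for Cd3e that start lies inside the gene as counted. Capitals mark an E-box (CANNTG, bound by E proteins of early lymphocytes) or a TCF/LEF motif (CTTTGA or its reverse complement).
Cd3d, chr9:44981636-44981785, plus: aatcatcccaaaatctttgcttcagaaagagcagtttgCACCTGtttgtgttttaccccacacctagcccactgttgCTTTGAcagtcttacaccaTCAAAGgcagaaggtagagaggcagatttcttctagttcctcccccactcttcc
Cd3g, chr9:44980432-44980581, minus: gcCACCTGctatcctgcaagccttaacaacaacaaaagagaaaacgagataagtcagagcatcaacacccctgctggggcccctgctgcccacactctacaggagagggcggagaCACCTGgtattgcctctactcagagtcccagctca
Cd3e, chr9:45009612-45009761, minus: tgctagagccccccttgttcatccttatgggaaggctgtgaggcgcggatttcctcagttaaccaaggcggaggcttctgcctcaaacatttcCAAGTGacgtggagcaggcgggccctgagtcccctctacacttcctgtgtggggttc
Cd247, chr1:165788531-165788680, plus: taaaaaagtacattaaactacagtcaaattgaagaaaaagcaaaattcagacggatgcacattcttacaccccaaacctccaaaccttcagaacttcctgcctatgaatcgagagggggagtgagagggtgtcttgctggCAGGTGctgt
Cd8a, chr6:71373277-71373426, plus: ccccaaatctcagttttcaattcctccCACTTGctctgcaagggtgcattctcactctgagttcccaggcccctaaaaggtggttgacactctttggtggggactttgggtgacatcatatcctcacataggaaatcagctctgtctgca
All 5 windows held an E-box on either strand, Cd3g 2 of them, and so did 47.7% of all 32851 promoter windows of this length. Cd3d held 2 TCF/LEF motifs, and 7.93% of all windows held at least 1. The STAT motif TTCNNNGAA (4.09% of all windows) and the RUNX motif TGTGGT or its reverse complement (8.40%) were found in none of the 5. A match in these letters is not a binding site, and its absence says nothing of the factor.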

How the data were processed

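RNA-seq was done on 9 polyA libraries (Lexogen SENSE kit, 50 bp single-end). The authors trimmed the reads with Trimmomatic, mapped them with STAR to GRCm38 and deposited raw counts per gene from featureCounts 1.5.1 with GENCODE M13. Per the file headers no strand, multi-mapping or overlap option was set, so reads on several genes or places were not counted. Symbols came from GENCODE M21, which named 50376 of 50686 genes. Counts were TMM-normalized and tested with edgeR 4.0.16 (R 4.3.3; filterByExpr, all 9 libraries, 13852 genes, Benjamini-Hochberg), after testing on simulated data. SE was derived by dividing the size of the log2 fold change by the root of its F statistic. Ratios were log2 of reads plus 0.5 and were tested by exact permutation. Alternatives were DESeq2 1.42.0, RLE, no filter, 2 genotypes only, an offset of 0.1, a replicate block and each library left out. Replicates differed beyond sampling noise (chi-square per degree of freedom 13.9 to 17.8). Depth leaves genes with few reads imprecise. All 10 genes were described in full, with at most 6 called genes per marker list by size of change, its markers near 0, and the 5 other genes most like Cd3e and Trbc2. Further genes of the signalling list were named after their ratios to Cd3e were seen. The genes and lists were chosen with earlier results of these data known. Values of 2 single list genes are not reported here.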

Additional observations from a re-analysis of the deposited data

How the results depend on the processing

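Under DESeq2, RLE normalization, no filter on low counts and a fit of only the 2 genotypes compared, every count of called T-cell complex genes was as in the report, with 10 higher in Stat5b-/- against wt and 0 in the other comparisons, and the signalling list gave 17 to 19 higher in Stat5b-/- against wt. Leaving out 1 library gave 7 to 10 complex genes and 12 to 19 list genes higher in Stat5b-/- against wt, and 0 to 3 complex genes and 4 to 8 list genes higher in Stat5b-/- against Stat5a-/-, with the 8 and the 3 without Stat5b-/- replicate 2. In Stat5a-/- against wt the sign turned for Cd3d without wt replicate 1 (-0.036) and for Trbc1 without wt replicate 1 (-0.0998) or Stat5a-/- replicate 1 (-0.020), within ranges over all libraries left out of -0.036 to 0.31 and -0.0998 to 0.53, and the cause was not tested. No ratio passed an adjusted p of 0.05 under any of 88 alternatives, the lowest being 0.171. Replicate numbers did not pair the libraries: the deviations of libraries with the same number had a mean correlation of -0.088 over 9 pairs, and those with another number one of 0.044 over 18 pairs. With the number as a replicate block, 10 complex genes and 18 list genes were higher in Stat5b-/- against wt, and 0 complex genes were called in the other comparisons. Adjusted p alone was under 0.05 for 2 complex genes with the block and for 3 to 7 under the alternatives named first in Stat5a-/- against wt, where the report gives 4. In Stat5b-/- against Stat5a-/- it was under 0.05 for 8 complex genes with the block, where the report gives 9. Cd4, Trat1 and other genes of few reads are limited by depth.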
